A study of Mus musculus with 16 samples.

Results

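Proteins that leave the cell or sit in its membranes are folded in the endoplasmic reticulum (ER). The 40 genes described here encode the folding, quality control, degradation and export machinery of that compartment, together with the sensors and transcription factors of the unfolded protein response. They are a fixed list of symbols, chosen with earlier results of these data known. Each was read from the row of the array table whose annotation gives that symbol alone. A gene with several such rows was read from the brightest on average. Of the 40 genes, 37 had such a row among the 30138 genes of the table, and 36 passed the filter on low signals that left 18419 genes for testing. Pdia4 and Manf have rows shared with another gene and Fkbp10 has no row of its own in the annotation used, so they were not analysed here. Trib3, a pseudokinase induced by Ddit3 and Atf4, lay between 3.56 and 4.08 on the 16 arrays, at the level of the arrays' negative controls, and was not tested.

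The data are single-colour arrays of total RNA from atrial tissue of C57BL/6 wild-type male mice, 10 weeks old, which carry no engineered allele. In 3 groups, mice had the left anterior descending coronary artery tied off to cause a myocardial infarction (MI) and were killed 1, 3 or 7 days later, with 4 arrays for each day, and the controls are 4 arrays from mice given sham surgery. The labels do not give the time between sham surgery and tissue collection, and the series title counts these samples as 0 days. Nor do they state which atrium was taken or whether an array held RNA of 1 mouse or of several. P-values therefore measure the spread between these samples. The deposited values are log2 signals, and every difference below is a log2 difference of signal between an MI day and sham unless another pair is named. A gene is called changed where the limma test across all 18419 genes gave a Benjamini-Hochberg adjusted p under 0.05.

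In the unfolded protein response, unfolded chains draw the chaperone Hspa5 away from the sensors. Of these, Ern1 (IRE1) splices the mRNA of Xbp1 into the form that encodes an active transcription factor, Eif2ak3 (PERK) slows translation while favouring Atf4, and Atf6 is cut in the Golgi to release a transcription factor. The factors raise transcription of chaperones, disulfide isomerases, degradation enzymes and components of protein export, and under prolonged stress that of Ddit3 (CHOP), which promotes cell death. An array signal for the whole Xbp1 transcript does not tell the spliced from the unspliced form, and neither cleavage of Atf6 nor phosphorylation of Eif2ak3 is seen in RNA.

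A known mark of Atf6 and Xbp1 targets is the ER stress element, a CCAAT box and a CCACG box held at a fixed spacing. Promoter sequences of RefSeq (GRCm38.p6, 250 bases before to 50 after the gene's start) were found for 32 of the 37 genes with a row; Sec61a1, Hyou1, Atf6, Creb3l1 and Kdelr2 were not among them. The element, searched on both strands as CCAAT and CCACG with any 9 bases between them, occurred in 7 of these 32 promoters (21.9%) and in 37 of the 27025 promoters of all genes in the table (0.137%). The promoter of Hspa5 is shown first because this gene is the central chaperone of the response. It covers chr2:34771840-34772089 on the plus strand, and the capitals mark the element at chr2:34772025-34772043.
Hspa5: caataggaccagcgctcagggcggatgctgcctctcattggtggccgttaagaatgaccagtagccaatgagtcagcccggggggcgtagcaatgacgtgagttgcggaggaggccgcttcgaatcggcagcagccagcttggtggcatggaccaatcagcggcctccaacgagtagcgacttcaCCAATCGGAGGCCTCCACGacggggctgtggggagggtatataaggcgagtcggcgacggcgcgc

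The elements of the other 6 genes are printed with 10 bases on either side, so that the 2 boxes in capitals can be set against the variable bases between them, which are capitals too. Each is written in the orientation that reads CCAAT first. Those of Calr (chr8:84847075-84847093, gene on the minus strand), of Creld2 (chr15:88819520-88819538, gene on the plus strand) and the second of Hsp90b1 lie opposite to the gene's own direction. Hsp90b1 holds 2 copies, at chr10:86705638-86705656 and chr10:86705533-86705551, and its gene is on the minus strand. Those of Canx (chr11:50325800-50325818, minus strand), Pdia6 (chr12:17266491-17266509, plus strand) and Dnajc3 (chr14:118937827-118937845, plus strand) read in the direction of the gene.
Calr: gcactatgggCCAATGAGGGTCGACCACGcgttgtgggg
Hsp90b1 first copy: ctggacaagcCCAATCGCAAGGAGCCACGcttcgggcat
Hsp90b1 second copy: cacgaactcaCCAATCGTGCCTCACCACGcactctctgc
Canx: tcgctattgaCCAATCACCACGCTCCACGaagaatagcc
Pdia6: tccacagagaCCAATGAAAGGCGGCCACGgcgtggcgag
Dnajc3: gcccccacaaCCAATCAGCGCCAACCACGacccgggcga
Creld2: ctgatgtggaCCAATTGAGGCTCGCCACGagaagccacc

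A shorter variant, the ER stress element II (ATTGG and CCACG with any 1 base between them, both strands), occurred in 2 of the 32 promoters (6.25%), those of Herpud1 and Dnajb11, and in 0.0444% of all promoters. Herpud1 is shown because, as described below, its signal moved opposite to that of most other ER genes. Its element, in capitals, lies at chr8:94386377-94386387 on the gene's own plus strand.
Herpud1: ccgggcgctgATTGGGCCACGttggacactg

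The letters TGACGTGG, the core of the unfolded protein response element, occurred in the promoters of Sec24d, Sec23a and Kdelr3 (0.714% of all promoters), and TGATGNAAT, the composite site of Atf4 with C/EBP factors, in none of the 32 (1.08% of all promoters). These matches describe sequence only.

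Most of the ER genes were higher after infarction, and fewer of them on day 7 than on days 1 and 3. On day 1, 25 of the 36 tested genes rose and 1 fell, a called share of 72.2% against 47.1% of all tested genes (24.9% higher and 22.2% lower). Day 3 had 25 that rose and 3 that fell, 77.8% against a background of 43.7% (23.5% higher and 20.2% lower). By day 7, 14 had risen and 3 had fallen relative to sham, 47.2% against 24.8% (14.9% higher and 9.92% lower). The median log2 difference over the 36 genes was 0.48 on day 1, 0.76 on day 3 and 0.28 on day 7, beside 0.06, 0.08 and -0.01 over all tested genes. The mean was highest on day 3 for 19 of the 36, on day 1 for 11, on day 7 for 3 and in sham for 3, a split not counted for all tested genes. The list was chosen with earlier results of these data known, so its shares describe these genes and were not tested against the background.

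**Figure D1:**
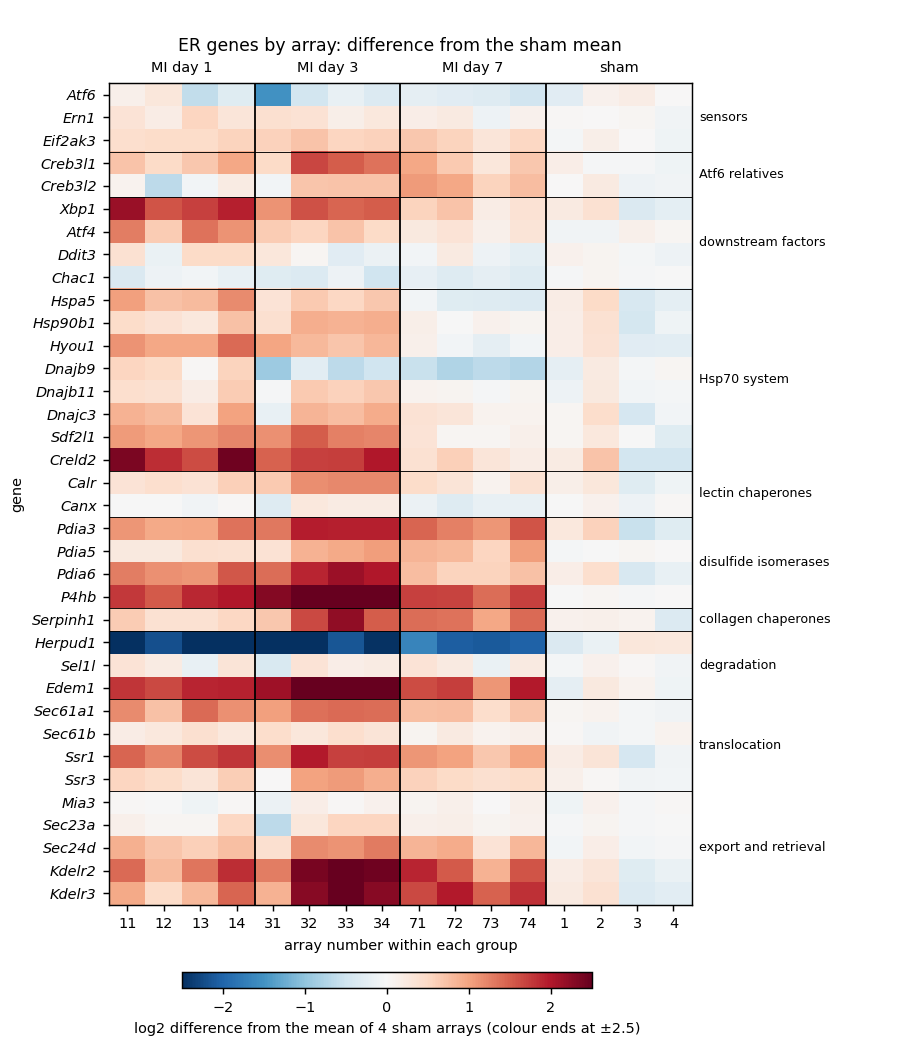
Log2 difference of each array from the mean of the 4 sham arrays for the 36 tested ER genes, with 1 row per gene ordered by role and 1 column per array, days 1, 3 and 7 to the left of sham. Xbp1, P4hb, Edem1, Kdelr2 and Kdelr3 are red on the MI arrays, Herpud1 is blue, and day 3 array 31 is paler than arrays 32 to 34 in many rows.

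The arrays were not of equal quality, and array 31 was also low for the ER genes. The area under the curve by which positive control rows stand above negative ones was 0.743 on day 3 array 31 and 0.755 on day 1 array 13, against 0.793 to 0.804 on the other day 1 arrays, 0.816 to 0.825 on the other day 3 arrays, 0.813 to 0.823 on day 7 and 0.812 to 0.821 in sham. Array 31 held the lowest day 3 value for 29 of the 36 genes, and its mean difference from sham over the 36 genes was 0.34, beside 0.90 to 0.93 on arrays 32 to 34. Without array 31, 29 genes rose and 3 fell on day 3, and 15 in place of 5 were called higher on day 3 than on day 1. All 18419 tested genes moved too: 4934 in place of 4331 rose and 3382 in place of 3720 fell on day 3. Of these, 3457 in place of 1096 were called higher on day 3 than on day 1. Control separation did not order the other arrays in the same way: on day 1, array 12, with the best separation of its group, held the lowest value for 19 of the 36 genes and array 13 for 13. Array 73 held the lowest day 7 value for 27 of the 36, and sham array 2 the highest sham value for 27, both with separations close to those of their groups. How often these arrays were lowest or highest among all tested genes was not counted. The counts of extremes therefore do not tell a trait of the ER genes from one of the whole array. The median signal of the negative controls was 4.69 to 4.87 on day 1, 4.52 to 4.93 on day 3 and 4.44 to 4.59 on day 7, against 4.47 to 4.53 in sham. Of the other counts against sham, the 1 gene lower on day 1 became 2 without array 33 or array 34, and the 3 lower on day 7 became 1 without array 72 or array 74. Among all tested genes, 4085 lower on day 1 became 4008 and 3974, and 1827 lower on day 7 became 1360 and 1182.

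The cells in the tissue also changed, as far as marker genes show. In bulk tissue, fewer cells of a type and less RNA per cell cannot be told apart. All 6 neutrophil markers rose on days 1 and 3, with mean log2 signals of 10.37 to 11.93 on day 1, 6.48 to 10.93 on day 3 and 4.79 to 5.03 on day 7, against 4.49 to 4.65 in sham. Macrophage markers (5 of 6 called higher on day 1 and 6 of 6 on days 3 and 7) averaged 10.34 to 10.89, 10.69 to 11.91 and 10.15 to 11.69 on days 1, 3 and 7, against 7.08 to 7.31 in sham. Fibroblast markers, of which 4 of the 5 with a row rose on days 3 and 7 and 1 fell on day 1, averaged 10.23 to 11.13, 11.53 to 14.3 and 15.04 to 16.07, against 10.13 to 10.49 in sham. Of the B and plasma cell markers, cells with a large ER, Cd79a, Ms4a1, Mzb1 and Irf4 were at background on every array and the list averaged 3.74 to 3.97 on day 1, 3.76 to 3.97 on day 3 and 3.8 to 3.98 on day 7, against 3.73 to 3.86 in sham. Sdc1, its single tested marker, rose by 0.25, 0.38 and 0.25 on days 1, 3 and 7 (adjusted p = 0.0226, 0.00164 and 0.0391). It was near background, with means of 4.77, 4.9 and 4.77, against 4.52 in sham. On 2 sham arrays and 1 day 1 array it was at or below the median negative control, which was itself higher on day 1 than in sham. The size of its rise is therefore uncertain. The atrial list, in which 4 of 6 markers fell on days 1 and 3, averaged 10.23 to 11.69, 9.31 to 12.6 and 12.26 to 13.27, against 13.56 to 13.82 in sham. The cardiomyocyte list averaged 17.64 to 18.3, 16.67 to 18.1 and 18.08 to 18.2, against 18.26 to 18.57 in sham, and Ryr2 and Ttn of that list fell on day 3 (differences -1.74 and -0.89). Of the endothelial markers, Pecam1 and Tek fell on day 1 (differences -0.62 and -1.53) and Cdh5 rose by 0.79 and 1.15 on days 3 and 7, and the list averaged 10.3 to 11.14, 10.94 to 11.7 and 11.56 to 12.34, against 11.27 to 11.6 in sham. The proliferation markers Mki67 and Top2a rose by 5.90 and 4.19 on day 3 and by 5.15 and 3.21 on day 7, with list means of 4.84 to 4.99, 6.87 to 8.82 and 7.49 to 7.69, against 4.66 to 4.81 in sham. The part of these cell types in the changes of the ER genes was not tested.

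Among the sensors and transcription factors, 5 of 9 tested genes rose and none fell on day 1 (1, Chac1, at an unadjusted p under 0.05), 5 rose and 1 fell on day 3, and 3 rose and 1 fell on day 7. The genes of the folding, degradation and secretion machinery rose in 20 of 27 cases and fell in 1 on day 1, in 20 and 2 on day 3, and in 11 and 2 on day 7. Of all tested genes, 24.9%, 23.5% and 14.9% rose and 22.2%, 20.2% and 9.92% fell on days 1, 3 and 7, and the same shares stand behind the counts by role below.

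The differences of the 3 sensors were at most 0.63 in size. Eif2ak3 was 6.69, 6.73, 6.73 and 6.81 on day 1, 6.84, 6.97, 6.79 and 6.83 on day 3 and 6.94, 6.81, 6.56 and 6.78 on day 7, against 6.21, 6.40, 6.28 and 6.16 in sham. All 12 MI arrays lay above all 4 sham arrays. The differences were 0.48 (standard error, SE, 0.08; adjusted p = 0.000396) on day 1, 0.60 (SE 0.08; adjusted p = 5.48e-05) on day 3 and 0.51 (SE 0.08; adjusted p = 0.000463) on day 7. Ern1 was 6.08, 5.92, 6.27 and 6.04 on day 1, 6.14, 6.09, 5.89 and 5.99 on day 3 and 5.91, 5.95, 5.60 and 5.85 on day 7, against 5.76, 5.75, 5.79 and 5.64 in sham. It was above every sham array on days 1 and 3 and overlapped with sham on day 7. It rose by 0.34 (SE 0.09; adjusted p = 0.00735) on day 1 and by 0.29 (SE 0.09; adjusted p = 0.017) on day 3, a day 3 call that was lost without sham array 4 (0.26, adjusted p = 0.0521), under quantile normalisation (0.15, adjusted p = 0.168) and under median centring (0.16, adjusted p = 0.172).

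Atf6 was not called on any day. Its signals were 11.88, 12.05, 11.15 and 11.45 on day 1, 10.24, 11.30, 11.57 and 11.41 on day 3 and 11.53, 11.48, 11.44 and 11.28 on day 7, against 11.47, 11.87, 11.94 and 11.76 in sham. The groups overlapped, and array 31 had the lowest value of all. The day 3 difference was -0.63 (95% confidence interval -1.19 to -0.07; adjusted p = 0.0665), and it was called without array 33 (-0.78, adjusted p = 0.0362), under quantile normalisation (-0.82, adjusted p = 0.0106), under median centring (-0.76, adjusted p = 0.0232), with array weights (-0.36, adjusted p = 0.0272) and with control separation as a covariate (-0.38, adjusted p = 0.0128). Without arrays 13 and 31 it was -0.33 (adjusted p = 0.0783). On days 1 and 7 the differences were -0.13 (adjusted p = 0.701) and -0.33 (adjusted p = 0.422), the day 7 value being called with array weights (-0.35, adjusted p = 0.0359) and with the covariate (-0.31, adjusted p = 0.0337). With control separation as a covariate the day 1 value changed sign, to 0.36 (adjusted p = 0.0348).

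Creb3l1 (OASIS) and Creb3l2 (BBF2H7) are membrane-bound relatives of Atf6 that, in mice, support secretion in bone and cartilage cells. Creb3l1 was 6.04, 5.81, 6.00 and 6.30 on day 1, 5.81, 7.00, 6.85 and 6.69 on day 3 and 6.31, 5.99, 5.61 and 6.00 on day 7, against 5.51, 5.30, 5.30 and 5.23 in sham. It stood above sham on every MI array, and array 31 was the lowest of day 3. The differences were 0.70 (SE 0.22; adjusted p = 0.017), 1.25 (SE 0.22; adjusted p = 0.000347) and 0.64 (SE 0.22; adjusted p = 0.0425) on days 1, 3 and 7. The day 1 call was lost without array 14 (0.62, adjusted p = 0.0524), and the day 7 call was lost in 9 of the 16 fits that left out an array (sham arrays 1 to 4 and arrays 11, 34, 71, 72 and 74), with adjusted p between 0.0519 and 0.124, and likewise under quantile normalisation, median centring and no filter (0.54 to 0.64, adjusted p 0.0632 to 0.0819).

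Creb3l2 followed a later course. It was 8.21, 7.47, 8.05 and 8.33 on day 1, 8.05, 8.81, 8.83 and 8.84 on day 3 and 9.18, 9.09, 8.67 and 8.89 on day 7, against 8.13, 8.34, 7.99 and 8.03 in sham. Day 7 was above sham on every array, and day 3 was too except for array 31. The day 7 difference was 0.84 (SE 0.21; adjusted p = 0.00919), and day 7 was also higher than day 1, by 0.94 (SE 0.21; adjusted p = 0.00474). On day 3 the difference of 0.51 was not called (adjusted p = 0.061), on day 1 it was -0.11 (adjusted p = 0.69), and the day 3 value was called without array 31 (0.71, adjusted p = 0.00508) or without array 12 (0.51, adjusted p = 0.0328), and with array weights (0.68) or the covariate (0.62).

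Downstream of the sensors, Xbp1 and Atf4 rose early. Xbp1 was 10.98, 10.39, 10.54 and 10.76 on day 1, 9.94, 10.42, 10.28 and 10.34 on day 3 and 9.38, 9.54, 9.02 and 9.19 on day 7, against 9.04, 9.21, 8.46 and 8.59 in sham. Days 1 and 3 did not overlap with sham, while 2 day 7 arrays lay among the sham values. Xbp1 rose by 1.84 (SE 0.19; adjusted p = 7.31e-06) on day 1 and by 1.42 (SE 0.19; adjusted p = 4.56e-05) on day 3, and on day 7 the difference was 0.46 (adjusted p = 0.0975), which was called without sham array 2 (0.59, adjusted p = 0.0488), with array weights (0.52, adjusted p = 0.0167) and with the covariate (0.46, adjusted p = 0.046). Day 7 was lower than day 3 by 0.96 on the log2 scale (difference -0.96, adjusted p = 0.00507) and than day 1 by 1.38 (difference -1.38, adjusted p = 0.000146).

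Atf4 was 7.94, 7.30, 8.02 and 7.79 on day 1, 7.30, 7.20, 7.38 and 7.15 on day 3 and 6.90, 7.01, 6.79 and 6.99 on day 7, against 6.58, 6.57, 6.79 and 6.72 in sham. Every MI array lay above every sham array, although the lowest day 7 array and the highest sham array both round to 6.79. It rose by 1.10 (SE 0.13; adjusted p = 2.28e-05) on day 1 and by 0.59 (SE 0.13; adjusted p = 0.00208) on day 3, with 0.26 (adjusted p = 0.175) on day 7, a value called without array 12 (0.26, adjusted p = 0.0428), with array weights (0.28, adjusted p = 0.0344) and in a fit of 2 groups only (0.26, adjusted p = 0.0292), and reduced to 0.15 by quantile normalisation or median centring. Atf4 was the gene of this group that was also called lower on day 3 than on day 1 (-0.50, SE 0.13, adjusted p = 0.0275).

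Ddit3, the factor tied to cell death under ER stress, was not called. It was 7.51, 6.96, 7.61 and 7.61 on day 1, 7.42, 7.17, 6.85 and 6.99 on day 3 and 7.05, 7.36, 7.01 and 6.89 on day 7, against 7.24, 7.20, 7.07 and 7.00 in sham. Day 1 was above sham on 3 arrays and below it on array 12, and days 3 and 7 spread around the sham values. The differences were 0.29 (95% confidence interval -0.04 to 0.63; adjusted p = 0.134), -0.02 (-0.36 to 0.32; adjusted p = 0.917) and -0.05 (-0.39 to 0.29; adjusted p = 0.901) on days 1, 3 and 7. The day 1 difference was called without array 12 (0.45, adjusted p = 0.0163) and with array weights (0.33, adjusted p = 0.0378), and was 0.14 as the mean of both Ddit3 rows and 0.12 with the covariate. A second row for Ddit3, with means of 7.15, 6.87 and 7.02 on days 1, 3 and 7, against 7.16 in sham, did not show the day 1 excess. Chac1, a glutathione-degrading enzyme induced through Atf4, did not exceed the median negative control on any array of the 3 MI days, so that the calls of lower signal on days 3 and 7 carry no size.

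**Figure D2:**
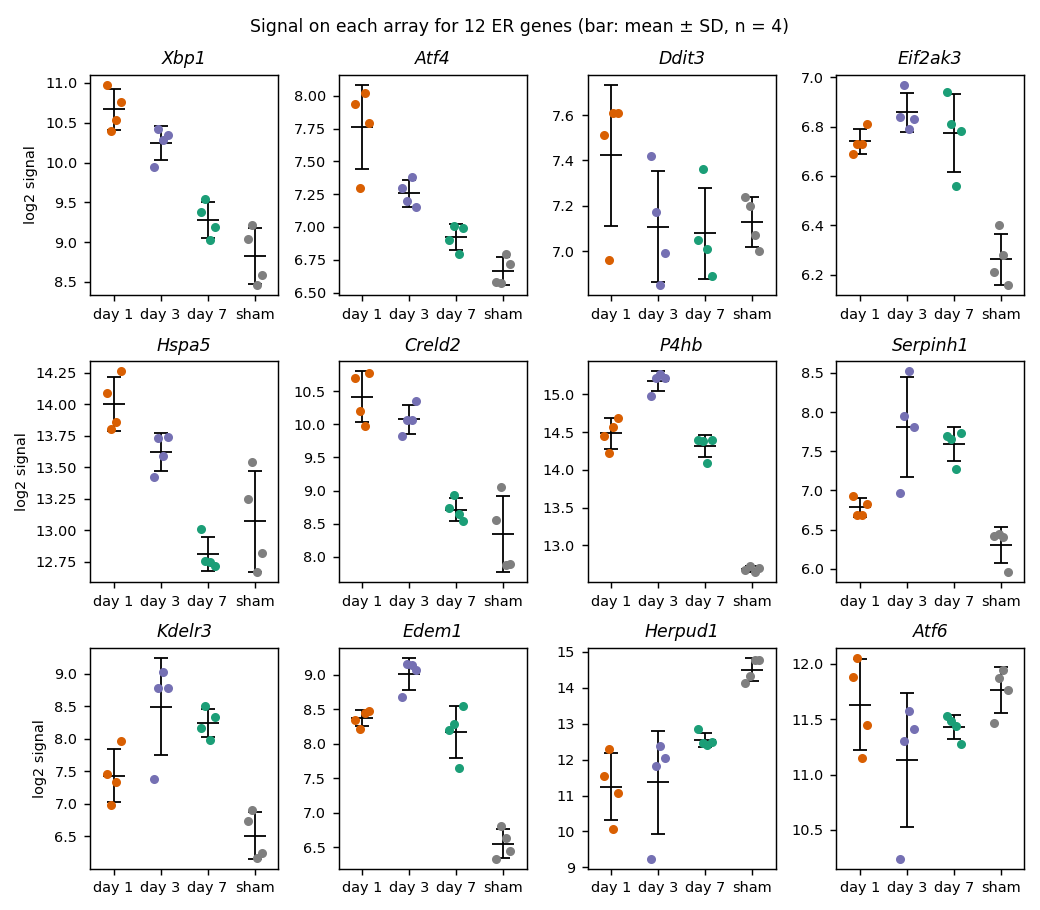
Log2 signal of 12 ER genes on each array (points) with the group mean ± SD of 4 arrays (bars), days 1, 3 and 7 to the left of sham; each panel has its own vertical scale. Xbp1, Atf4, Hspa5 and Creld2 are highest on day 1, P4hb, Serpinh1, Kdelr3 and Edem1 on day 3, Ddit3 overlaps between groups, and Herpud1 is lower on every MI array than in sham.

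The group of the ER Hsp70 system and its partners, which here include Hsp90b1 and Creld2, rose on day 1 and was back near sham on day 7. Of its 8 tested members, 8 were called higher on day 1, 6 were higher and 1 lower on day 3, and none was higher and 1 lower on day 7. Under quantile normalisation, however, Hsp90b1 had negative values on all 3 days (-0.06, -0.07 and -0.42). No member was higher on day 7 at an unadjusted p under 0.05 either. Hspa5 (BiP), the Hsp70 chaperone of the ER lumen, was 14.09, 13.80, 13.86 and 14.26 on day 1, 13.42, 13.73, 13.59 and 13.74 on day 3 and 13.01, 12.76, 12.75 and 12.72 on day 7, against 13.25, 13.54, 12.67 and 12.82 in sham. Day 1 lay above all sham arrays, day 3 above 3 of them with array 31 below sham array 2, and day 7 within the sham range. It averaged 14.00 ± 0.21 on day 1, 13.62 ± 0.15 on day 3 and 12.81 ± 0.13 on day 7, against 13.07 ± 0.40 in sham (SD, n = 4 each). The differences were 0.94 (SE 0.18; adjusted p = 0.000915), 0.55 (SE 0.18; adjusted p = 0.0217) and -0.26 (SE 0.18; adjusted p = 0.34).

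The day 3 call of Hspa5 was lost without sham array 3, sham array 4, array 32 or array 34 (0.42 to 0.51, adjusted p 0.0508 to 0.0774), under quantile normalisation (0.11, adjusted p = 0.658), under median centring (0.42, adjusted p = 0.0631) and in a fit of the 2 groups alone (0.55, adjusted p = 0.082). Day 7 was lower than day 3 (-0.81, SE 0.18, adjusted p = 0.00923) and than day 1 (-1.19, SE 0.18, adjusted p = 0.000277).

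Creld2, a disulfide isomerase-like protein released from stressed cells, had the largest differences of this group on days 1 and 3. It was 10.70, 10.20, 9.98 and 10.77 on day 1, 9.82, 10.06, 10.07 and 10.35 on day 3 and 8.73, 8.94, 8.64 and 8.54 on day 7, against 8.55, 9.06, 7.88 and 7.89 in sham. The lowest day 1 and day 3 arrays were above the highest sham array, and all day 7 arrays were within the sham range. It rose by 2.07 (SE 0.25; adjusted p = 2.88e-05) on day 1 and by 1.73 (SE 0.25; adjusted p = 9.08e-05) on day 3, with 0.37 (adjusted p = 0.334) on day 7. Hyou1, a nucleotide exchange factor for Hspa5, and Sdf2l1, a partner of Dnajb11, had the same pattern of calls with differences of 1.12 and 1.09 on day 1, 0.83 and 1.29 on day 3, and -0.06 and 0.14 on day 7, of which neither day 7 value was called (adjusted p = 0.868 and 0.472).

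Hsp90b1 (GRP94), the Hsp90 of the ER, had differences of 0.46 (adjusted p = 0.0379), 0.77 (adjusted p = 0.00199) and 0.08 (adjusted p = 0.822), which all turned negative under quantile normalisation as given above. It is among the brightest of the ER genes, reaching 15.95. Its day 1 call was also lost without sham array 3, sham array 4, array 11 or array 14 (adjusted p 0.0665 to 0.122), under median centring (0.36, adjusted p = 0.0759), with no filter (adjusted p = 0.0572) and with 2 groups only (adjusted p = 0.0646). The Hsp40 co-chaperone Dnajb11 rose by 0.41 on day 1 (adjusted p = 0.0368) and 0.47 on day 3 (adjusted p = 0.0193), calls lost in 6 and 3 of the 16 fits that left out an array (adjusted p up to 0.108 and 0.0603; sham arrays 1, 3 and 4 and arrays 11, 12 and 14 for day 1, sham array 1 and arrays 32 and 34 for day 3). Median centring ended both calls (0.32 and 0.34, adjusted p = 0.0711 and 0.0565), no filter the first (adjusted p = 0.0552) and a fit of 2 groups only the second (adjusted p = 0.079), and the covariate moved the day 1 value to 0.65. Dnajc3 (P58IPK) rose by 0.75 on day 1 (adjusted p = 0.0219; lost without sham array 3 or array 14, adjusted p 0.0627 to 0.0707, and under quantile normalisation, 0.54 with adjusted p = 0.0508; 1.15 with the covariate). Its 0.59 on day 3 (adjusted p = 0.0656) was called without array 31 (0.85, adjusted p = 0.00208) or without sham array 2 (adjusted p = 0.0345), and with array weights (0.80) or the covariate (0.79).

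Dnajb9 (ERdj4), a co-chaperone of Hspa5 and a target of Xbp1, left the group after day 1. It was 12.13, 12.07, 11.62 and 12.14 on day 1, 10.69, 11.32, 10.94 and 11.09 on day 3 and 11.03, 10.83, 10.93 and 10.86 on day 7, against 11.36, 11.81, 11.55 and 11.64 in sham. Day 1 was above sham on 3 arrays, with array 13 inside the sham range, and every array of days 3 and 7 was below every sham array. The day 1 difference of 0.40 stood at the threshold (SE 0.16; adjusted p = 0.0498), and that call was lost in 12 of the 16 fits that left out an array (adjusted p 0.0587 to 0.129; the fits without sham array 2, array 13, array 31 and array 32 kept it). It was also lost under quantile normalisation (0.19, adjusted p = 0.263), median centring (0.31, adjusted p = 0.0985), no filter (adjusted p = 0.0691) and 2 groups only (adjusted p = 0.0605), and was 0.61 with the covariate. It fell by 0.58 on day 3 (difference -0.58, SE 0.16, adjusted p = 0.00797) and by 0.67 on day 7 (difference -0.67, SE 0.16, adjusted p = 0.00587). Day 3 was lower than day 1 by 0.98 on the log2 scale (difference -0.98, SE 0.16, adjusted p = 0.00194), with no overlap.

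Among the lectin chaperones, which hold glycoproteins during folding, the soluble Calr rose and the membrane-bound Canx was not called. Calr was 11.81, 11.89, 11.84 and 12.06 on day 1, 12.12, 12.63, 12.68 and 12.68 on day 3 and 11.93, 11.79, 11.56 and 11.85 on day 7, against 11.61, 11.76, 11.16 and 11.36 in sham. Days 1 and 3 were above all sham arrays and day 7 overlapped with them. The differences were 0.43 (adjusted p = 0.0418), 1.06 (SE 0.16; adjusted p = 0.000126) and 0.31 (adjusted p = 0.187), and day 3 was higher than day 1 (0.63, SE 0.16, adjusted p = 0.0258). The day 1 call was lost in 8 of the 16 fits that left out an array (sham arrays 3 and 4, arrays 11 to 14, 72 and 74; adjusted p 0.052 to 0.129), under quantile normalisation (0.21, adjusted p = 0.269), under median centring (0.33, adjusted p = 0.0843) and with no filter (adjusted p = 0.0589). With array weights the day 7 value was called (0.33, adjusted p = 0.0313). Canx had differences of -0.03, 0.09 and -0.21 (adjusted p = 0.861, 0.565 and 0.238). Whether Canx differed depended on the processing. Under quantile normalisation it was called lower on all 3 days (-0.49, -0.63 and -0.67; adjusted p = 0.000576, 8.45e-05 and 0.000126), the opposite sign to the reported day 3 value. On day 3 it was called higher without array 31 (0.23, adjusted p = 0.0313), without arrays 13 and 31 and with array weights (0.20, adjusted p = 0.0182). On day 7 it was called lower without array 31 (-0.21, adjusted p = 0.0394), under median centring (-0.31, adjusted p = 0.0474), with array weights (-0.23, adjusted p = 0.0093), with the covariate (-0.20, adjusted p = 0.0375), with 2 groups only (-0.21, adjusted p = 0.0396) and without arrays 13 and 31 (-0.21, adjusted p = 0.0146).

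The disulfide isomerases, which form and shuffle disulfide bonds, were still higher on day 7: 3 of 4 tested members rose on day 1 and 4 of 4 on days 3 and 7. P4hb, the classical isomerase and also the beta subunit of collagen prolyl 4-hydroxylase, was 14.45, 14.22, 14.57 and 14.69 on day 1, 14.98, 15.22, 15.27 and 15.22 on day 3 and 14.39, 14.38, 14.09 and 14.40 on day 7, against 12.67, 12.73, 12.65 and 12.70 in sham. Every MI array was above every sham array, and every day 3 array above every array of days 1 and 7. Its means were 14.48 ± 0.20, 15.17 ± 0.13 and 14.31 ± 0.15 on days 1, 3 and 7, against 12.69 ± 0.03 in sham (SD, n = 4 each). P4hb rose by 1.79 (SE 0.12; adjusted p = 2.13e-07), 2.48 (SE 0.12; adjusted p = 3.27e-08) and 1.63 (SE 0.12; adjusted p = 1.45e-06). It was higher on day 3 than on day 1 (0.69, adjusted p = 0.00273) and lower on day 7 than on day 3 (-0.86, adjusted p = 0.000473).

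Pdia3 (ERp57), the isomerase that works with Calr and Canx, rose by 1.09, 1.80 and 1.34 on days 1, 3 and 7 (adjusted p = 0.00185, 3.11e-05 and 0.000811). Pdia6 rose by 1.27, 1.86 and 0.66 (adjusted p = 0.000177, 6.49e-06 and 0.0233). Pdia6 fell back between days 3 and 7 (-1.20, SE 0.19, adjusted p = 0.00153), whereas for Pdia3 that step was not called (-0.45, adjusted p = 0.21). The day 7 call of Pdia6 was lost without sham array 3, sham array 4, array 71 or array 74 (adjusted p 0.0616 to 0.0805). Pdia5 had 0.32 on day 1 (adjusted p = 0.0579), which was called without array 31 (adjusted p = 0.00709) or array 73 (adjusted p = 0.0455), with array weights, with the covariate (0.46), with 2 groups only and without arrays 13 and 31, and rose by 0.81 on both later days (adjusted p = 0.0002 and 0.000454).

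Serpinh1 (Hsp47) is a chaperone with collagens as its clients. Its signals were 6.93, 6.68, 6.69 and 6.83 on day 1, 6.97, 7.95, 8.52 and 7.81 on day 3 and 7.70, 7.66, 7.27 and 7.73 on day 7, against 6.42, 6.44, 6.40 and 5.96 in sham. All MI arrays were above sham, with array 31 the lowest of day 3. The differences were 0.47 (adjusted p = 0.116), 1.50 (SE 0.24; adjusted p = 0.000199) and 1.28 (SE 0.24; adjusted p = 0.00152), and days 3 and 7 were both higher than day 1 (1.03, adjusted p = 0.0175, and 0.81, adjusted p = 0.025). The day 1 value was called without array 31 (0.47, adjusted p = 0.0182), with array weights (0.54), with the covariate (0.83), with 2 groups only (0.47) and without arrays 13 and 31 (0.50). A dimmer second row of Serpinh1 had means of 5.07, 5.51 and 5.22 on days 1, 3 and 7, against 4.93 in sham, and as the mean of both rows the differences were 0.31 on day 1 and 0.79 on day 7. Between days 3 and 7 Serpinh1 was not called (-0.22, adjusted p = 0.524). Over that step the fibroblast markers Col1a1, Col1a2, Col3a1 and Postn rose further, by 2.75, 2.22, 1.85 and 2.54, and Dcn was not called (0.74, adjusted p = 0.141). The part of fibroblasts in the rise of Serpinh1 was not tested.

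The degradation genes did not move as a group. Herpud1, a membrane protein of the ubiquitin ligase complex that clears misfolded proteins, had the largest fall among the ER genes. It was 11.54, 12.30, 10.08 and 11.08 on day 1, 9.24, 11.82, 12.37 and 12.04 on day 3 and 12.85, 12.45, 12.41 and 12.49 on day 7, against 14.14, 14.33, 14.78 and 14.76 in sham. The highest MI value, 12.85 on array 71, was below the lowest sham value of 14.14, and arrays 13 and 31, those with the poorest control separation, were the lowest of their groups. The differences were -3.25 (SE 0.58; adjusted p = 0.00054), -3.14 (SE 0.58; adjusted p = 0.00058) and -1.96 (SE 0.58; adjusted p = 0.0228), all of them falls. The day 7 call was lost without sham array 3, sham array 4, array 72 or array 74 (-1.94 to -1.86, adjusted p 0.0531 to 0.0597). With control separation as a covariate the day 1 difference was -2.12 (adjusted p = 5.25e-06). Of the 6 atrial markers, Sln, Myl7, Kcnj3 and Nr2f2 fell on days 1 and 3 (differences of -5.09, -3.10, -5.26 and -0.56 on day 1 and -3.51, -3.49, -4.19 and -0.54 on day 3). On day 7, when Herpud1 was still called lower, these 4 had differences of -1.66, -2.14, -2.25 and -0.06, none of them called (adjusted p = 0.411, 0.224, 0.0989 and 0.826). Sln, Myl7 and Kcnj3 still did not overlap with sham on day 7, and their SEs (1.29, 1.20 and 0.94) were larger than that of Herpud1. Nr2f2 overlapped with sham. Nppa, which lies at the top of the signal scale, and Myl4 were not called on any day. The part of these markers in the fall of Herpud1 was not tested.

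Edem1, a lectin-like protein that directs misfolded glycoproteins to degradation, went the opposite way. It was 8.34, 8.21, 8.45 and 8.47 on day 1, 8.67, 9.16, 9.14 and 9.06 on day 3 and 8.19, 8.28, 7.65 and 8.54 on day 7, against 6.33, 6.80, 6.63 and 6.44 in sham. No MI array overlapped with sham, and day 3 was the highest group on every array. The rises were 1.82, 2.45 and 1.61 (SE 0.17 each; adjusted p = 3.85e-06, 4.57e-07 and 2.48e-05). Sel1l, the adaptor of the same ligase complex as Herpud1, had differences of 0.17, 0.09 and 0.16, none called (adjusted p = 0.413, 0.702 and 0.59). The day 1 value of Sel1l was called with array weights (0.27, adjusted p = 0.0298), with the covariate (0.44, adjusted p = 0.00747) and without arrays 13 and 31 (0.29, adjusted p = 0.0458).

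Translocation genes, whose products pass new chains into the ER, rose in 4 of 4 cases on days 1 and 3 and in 2 of 4 on day 7. Ssr1, a subunit of the translocon-associated complex, was 10.91, 10.67, 11.08 and 11.24 on day 1, 10.60, 11.43, 11.16 and 11.17 on day 3 and 10.56, 10.45, 10.13 and 10.44 on day 7, against 9.64, 9.77, 9.03 and 9.35 in sham. The MI arrays all exceeded the highest sham array. Ssr1 rose by 1.53 (SE 0.20; adjusted p = 5.29e-05), 1.64 (SE 0.20; adjusted p = 2.13e-05) and 0.95 (SE 0.20; adjusted p = 0.00334). The pore subunit Sec61a1 rose by 1.12, 1.30 and 0.67 (adjusted p = 3.46e-05, 7.69e-06 and 0.003), and the small subunit Sec61b by 0.28 and 0.37 on days 1 and 3 (adjusted p = 0.00251 and 0.000283), with 0.13 on day 7 (adjusted p = 0.151; 0.15 and adjusted p = 0.0311 with array weights). Quantile normalisation ended the day 1 call of Sec61b (0.13, adjusted p = 0.0937), and its day 3 value became 0.22 there and 0.24 under median centring, both still called. Sec61b was dim, with means of 5.15, 5.24 and 5.0 on days 1, 3 and 7, against 4.87 in sham. The negative controls were also higher on day 1 than in sham, as given above, and the part of this background in its rise was not tested. Ssr3 had 0.48, 0.75 and 0.48 (adjusted p = 0.0464, 0.00463 and 0.0775). Its day 1 call was lost in 13 of the 16 fits that left out an array, those without array 31, 32 or 33 being the exceptions (adjusted p 0.0531 to 0.107), and it was lost too under quantile normalisation (0.30, adjusted p = 0.192), median centring (0.39, adjusted p = 0.0825) and no filter (adjusted p = 0.0657), while the covariate gave 0.80. Quantile normalisation also ended the day 3 call of Ssr3 (0.35, adjusted p = 0.142). Its day 7 value was called without array 31 (0.48, adjusted p = 0.00102), without arrays 13 and 31, with array weights, with the covariate and with 2 groups only (0.48 to 0.50).

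Of the export and retrieval genes, Kdelr2, Kdelr3 and Sec24d rose on all 3 days, and Mia3 and Sec23a were called on none. Kdelr2 and Kdelr3 encode receptors that return escaped ER chaperones from the Golgi. Kdelr2 was 12.90, 12.28, 12.82 and 13.33 on day 1, 12.76, 13.86, 14.01 and 13.91 on day 3 and 13.39, 13.01, 12.36 and 13.06 on day 7, against 11.66, 11.78, 11.18 and 11.31 in sham. Each MI array was above the sham arrays, with array 12 the lowest. The differences were 1.35, 2.15 and 1.47 (SE 0.30 each; adjusted p = 0.00271, 6.68e-05 and 0.00272). Kdelr3 was 7.46, 6.98, 7.33 and 7.96 on day 1, 7.39, 8.78, 9.03 and 8.78 on day 3 and 8.17, 8.50, 7.98 and 8.33 on day 7, against 6.73, 6.90, 6.17 and 6.25 in sham. Day 1 cleared the sham range narrowly on array 12 and days 3 and 7 by more. It rose by 0.92 (SE 0.31; adjusted p = 0.0282), 1.98 (SE 0.31; adjusted p = 0.000178) and 1.73 (SE 0.31; adjusted p = 0.00117). The day 1 call of Kdelr3 was lost without sham array 3, sham array 4, array 11 or array 14 (adjusted p 0.052 to 0.086).

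Sec24d, a cargo-binding protein of the COPII coat that buds vesicles from the ER, rose by 0.73, 1.00 and 0.73 (SE 0.18 each; adjusted p = 0.00479, 0.000494 and 0.00821). Sec23a, its partner in the coat, had 0.19, 0.19 and 0.12 (adjusted p = 0.465, 0.496 and 0.78), and its day 3 value was called without array 31 (0.46, adjusted p = 0.00583), without arrays 13 and 31 (0.46), with array weights (0.47) and with the covariate (0.36, and 0.53 on day 1). Mia3 (TANGO1), which loads procollagen into COPII carriers, had -0.02, 0.04 and 0.09 (adjusted p = 0.89, 0.719 and 0.545). The 95% confidence interval for Mia3 on day 3 was -0.14 to 0.22.

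**Figure D3:**
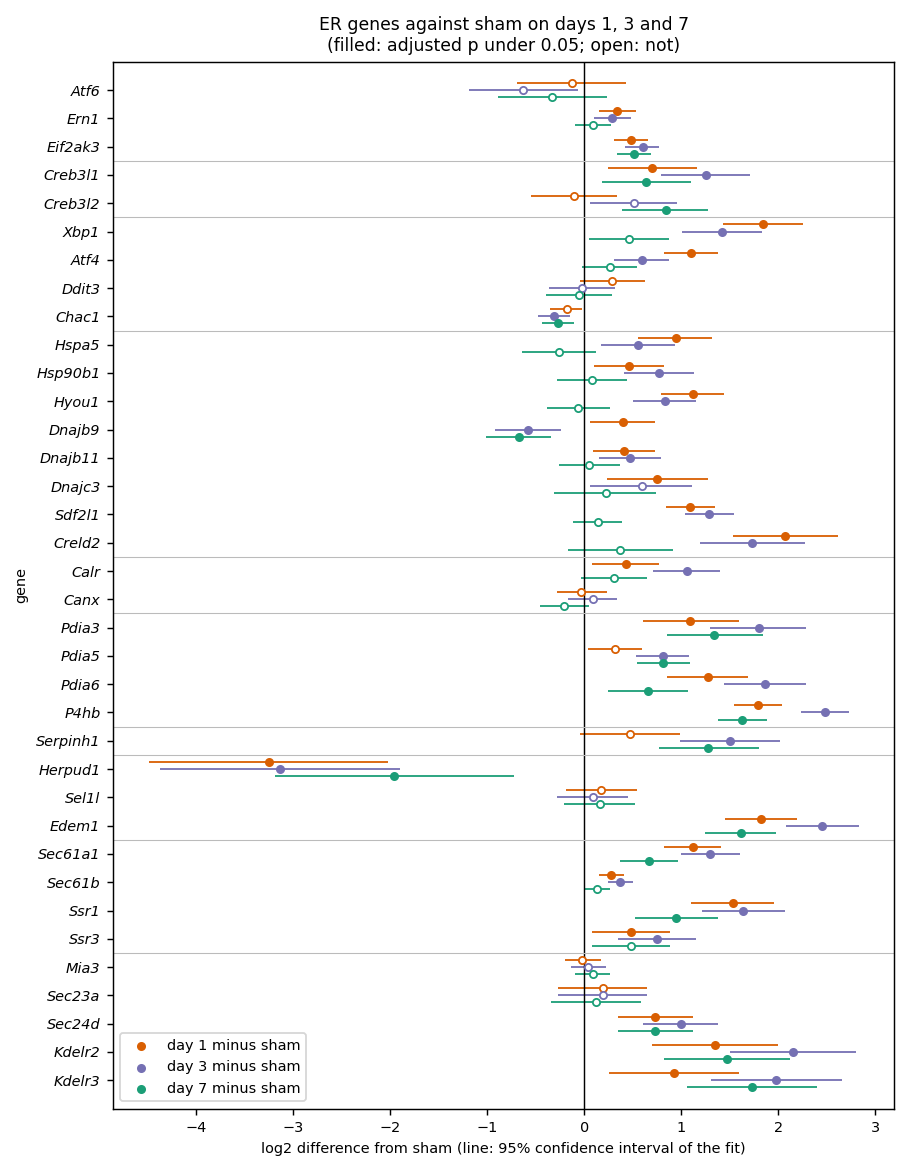
Log2 difference from sham (horizontal axis) of the 36 tested ER genes on days 1, 3 and 7, with the 95% confidence interval of the fit as a line; filled points have an adjusted p under 0.05. Herpud1 lies far to the left on all 3 days, the group of the Hsp70 system and its partners is right of 0 on day 1 and near or left of it on day 7, and P4hb, Edem1, Kdelr2 and Kdelr3 stay to the right.

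Set beside each other by day, 11 genes rose on all 3 days: Eif2ak3, Creb3l1, Pdia3, Pdia6, P4hb, Edem1, Sec61a1, Ssr1, Sec24d, Kdelr2 and Kdelr3. Another 12 were called higher on days 1 and 3 alone, namely Ern1, Xbp1, Atf4, Hspa5, Hsp90b1, Hyou1, Dnajb11, Sdf2l1, Creld2, Calr, Sec61b and Ssr3. The later-rising genes were Pdia5 and Serpinh1, on days 3 and 7, and Creb3l2, on day 7. Atf6, Ddit3, Canx, Sel1l, Mia3 and Sec23a were not called on any day. The share of all tested genes with each of these patterns was not counted. The patterns also depend on the threshold: Ssr3 had a difference of 0.48 on both day 1, when it was called, and day 7, when it was not. The 3 comparisons share the sham arrays, so a sham array that stands apart moves all of them.

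The steps between MI days do not use sham. Between days 1 and 3, 5 genes were higher (Calr, Pdia5, P4hb, Serpinh1 and Edem1) and 2 lower (Atf4 and Dnajb9), 19.4% against 8.11% of all tested genes (5.95% higher and 2.16% lower). That count of 5 ranged from 1 to 15 when arrays were left out in turn, being 2 without array 11, 12, 33 or 34, 3 without array 13, 1 without array 32 and 15 without array 31. Among all tested genes, the number called higher ranged from 557 without array 32 to 3457 without array 31. The 2 lower calls became 1 without array 11, 13, 14, 32 or 34. A fit of the 2 groups only called none of the ER genes in this step. Among all tested genes that fit called 208 higher and 46 lower, in place of 1096 and 398. Array weights gave more calls in both directions, as set out under the processing below. Between days 3 and 7, none was higher at an adjusted or an unadjusted p under 0.05 by limma, and 13 were lower, 36.1% against 12.6% (4.06% higher and 8.57% lower). These 13 were Xbp1, Hspa5, Hsp90b1, Hyou1, Sdf2l1, Creld2, Calr, Pdia6, P4hb, Edem1, Sec61a1, Sec61b and Ssr1. Without array 31 the count was 20, while the number called lower among all tested genes went from 1579 to 2231. Sdf2l1 had the smallest adjusted p of these steps (-1.15, SE 0.12, adjusted p = 7.45e-05). Day 7 against day 1 had 3 genes higher (Creb3l2, Pdia5 and Serpinh1) and 10 lower, 36.1% against 26.4% (13.7% higher and 12.7% lower). Without array 31, 5 were higher, while the number called higher among all tested genes went from 2515 to 3956.

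**Figure D4:**
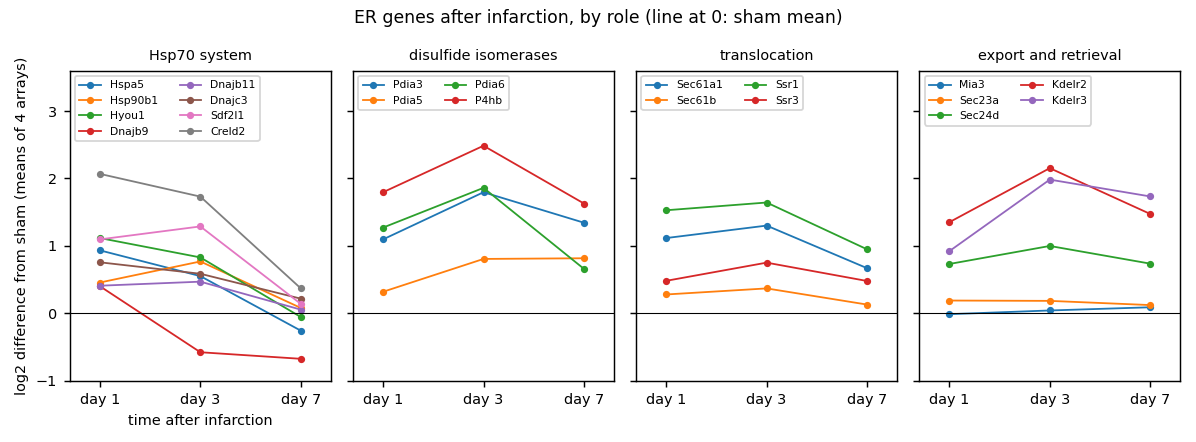
Mean log2 difference from sham (vertical axis) on days 1, 3 and 7 after infarction for the tested genes of 4 roles, each point a mean of 4 arrays and the line at 0 the sham mean. The group of the Hsp70 system and its partners returns to within 0.37 of sham by day 7, apart from Dnajb9 at -0.67, while the disulfide isomerases lie at 0.66 or more and Kdelr2 and Kdelr3 at 1.47 and 1.73.

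The ER stress element can be set beside these time courses. Of the 7 genes that hold it (Hspa5, Calr, Hsp90b1, Canx, Pdia6, Dnajc3 and Creld2, whose sequences are printed above), 6 rose on day 1, 5 on day 3 and 1 on day 7, and 5 were lower on day 7 than on day 3. Among the 24 tested genes whose promoter does not hold it, 15 rose and 1 fell on day 1, 16 and 3 on day 3, 10 and 3 on day 7, and 6 were lower on day 7 than on day 3. Of all tested genes, 24.9%, 23.5% and 14.9% rose on days 1, 3 and 7, and 8.57% were lower on day 7 than on day 3. Median differences from sham were 0.75, 0.77 and 0.22 with the element and 0.44, 0.59 and 0.36 without it. No test was made of this, since the groups are small and Hspa5, Hsp90b1, Dnajc3 and Creld2 also belong to the same role.

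A wider list of 93 further genes of the same pathways, of which 85 were tested, was counted in the same way. It too was chosen with earlier results of these data known. On day 1, 31 rose and 6 fell (36.5% and 7.06%, against 24.9% and 22.2% of all tested genes). On day 3, 39 rose and 4 fell (45.9% and 4.71%, against 23.5% and 20.2%), and on day 7, 21 rose and 1 fell (24.7% and 1.18%, against 14.9% and 9.92%). The medians were 0.21, 0.36 and 0.22. The genes named below are those with the largest called differences in each list and day. In quality control, 7, 11 and 9 of 22 genes rose on days 1, 3 and 7 and 1 fell, on day 1. Ero1a, the oxidase that recharges disulfide isomerases, rose by 2.83 on day 1 (SE 0.57; adjusted p = 0.00143). Txndc5, a further isomerase, rose by 1.09, 2.00 and 1.90 on days 1, 3 and 7 (SE 0.26 each), and Ppib, a prolyl isomerase that acts on collagen, by 1.91 on day 3 and 1.69 on day 7 (SE 0.19 each).

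Stress signalling gave 8 rises and 1 fall among 15 tested genes on day 1 and 4 rises and 1 fall on day 3, and 3 of them rose on day 7. The share that rose, 53.3% on day 1, was 26.7% on day 3, near the 23.5% of all tested genes, and on day 7 the background was 14.9%. Asns, the asparagine synthetase gene induced by Atf4, rose by 1.38 on day 1 and 0.84 on day 3 (adjusted p = 1.03e-05 and 0.000422). Atf3, a stress-induced transcription factor, rose by 1.28 on day 1 (adjusted p = 0.000282). Creb3 rose by 0.79 on day 3 (adjusted p = 0.00428), and on day 7 Nupr1 and Mbtps1, the protease that cuts Atf6, rose by 1.33 (adjusted p = 0.000406) and 0.40 (adjusted p = 0.0306).

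In translocation and glycosylation, 8, 14 and 3 of 19 genes rose on days 1, 3 and 7 and 1 fell on each day (42.1%, 73.7% and 15.8% rose, the last near the 14.9% of all tested genes). Spcs3, a signal peptidase subunit, rose by 2.54 and 1.88 on days 1 and 3. Stt3a, a catalytic subunit of oligosaccharyltransferase, rose by 1.81, 2.03 and 1.14, and Ddost, another subunit, by 0.82 on day 7 (adjusted p = 0.0342).

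Among the further degradation genes, 3, 5 and 2 of 12 rose, which on days 1 and 7 is near the share of all tested genes (24.9% and 14.9%, with 23.5% on day 3). Erlec1, a lectin of that route, fell by 1.18 and 1.02 on days 1 and 3 (differences -1.18 and -1.02; adjusted p = 0.00158 and 0.00344). Ubxn4 rose by 1.03 and 0.49 on the same days, and Os9 and Edem2 by 0.62 and 0.24 on day 7. In export and retrieval, 5 rose and 2 fell among 17 genes on day 1, 5 rose and 1 fell on day 3 and 4 rose on day 7. The shares that rose, 29.4%, 29.4% and 23.5%, stood beside 24.9%, 23.5% and 14.9% of all tested genes. Sec23b and Copb1, coat components of vesicles that leave and return to the ER, rose by 1.14 and 1.00 on day 1, and Copb1 by 0.90 on day 3. Sar1b, the GTPase that starts COPII coat assembly, fell by 1.08 on day 3 (difference -1.08, adjusted p = 0.0139), and Sec24b and Arf4 rose by 0.63 and 0.88 on day 7.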

How the data were processed

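Per the labels' protocols, total RNA of atrial tissue was biotin-labelled and hybridised to Affymetrix arrays. The authors deposited log2 signals, 1 column per array and 72688 rows, which the submitters' processing notes tie to Affymetrix Expression Console; how background was corrected and signals summarised and scaled was not given in the sources used here. The labels name a 3' expression array, but row names are transcript clusters, so the array design is uncertain. A probe annotation gave 1 gene symbol for 30604 rows, several for 2146 and none for 33206 (6732 more are controls); 823 symbols were updated through RefSeq (GRCm38.p6).

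Genes above the array's median of all rows on at least 4 arrays were tested with limma 3.58.1 in R 4.3.3 (lmFit, eBayes with a trend, 1 mean per group over all 16 arrays, 6 comparisons, Benjamini-Hochberg within each). Array number limits the precision. Intervals are 95% intervals of the fit. Signals at or below the median negative control on all 4 arrays of a group were read as background. Values on every array were given for the sensors, Xbp1, Atf4, Ddit3, Hspa5 and the largest differences per role and day, and 2 further pathway genes were named per list and day. The sequence rule asked for Hspa5 and up to 3 promoters more; all 7 with the element and Herpud1 are shown, a choice made after their values were seen. Members and lists were chosen with earlier results of these data known. The script was tested on simulated data. Alternatives were quantile normalisation, median centring, no filter, the mean over rows, array weights, control separation as a covariate, 2 groups only, and arrays left out.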

Additional observations from a re-analysis of the deposited data

Results flagged for a closer look

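For each of the 36 genes and 4 groups (144 pairs), the highest or lowest array was compared with the other 3 by Dixon's ratio of gap to range, which chance alone exceeds in about 1 of 20 groups. It exceeded Dixon's 95% critical value in 21 pairs, and 12 of these were array 31 of day 3, always below the other 3 day 3 arrays. Array 31 read 8.05 for Creb3l2 (others 8.81 to 8.84), 15.46 for Hsp90b1 (15.91 to 15.95), 7.7 for Dnajb11 (8.31 to 8.41), 10.3 for Dnajc3 (11.26 to 11.41), 12.12 for Calr (12.63 to 12.68) and 14.75 for Canx (15.27 to 15.34). It read 13.83 for Pdia3 (others 14.45 to 14.47), 14.98 for P4hb (15.22 to 15.27), 8.47 for Sec61a1 (8.81 to 8.85), 12.78 for Ssr3 (13.68 to 13.83), 12.76 for Kdelr2 (13.86 to 14.01) and 7.39 for Kdelr3 (8.78 to 9.03). The same array had the lowest separation of positive from negative controls, 0.743, and a median correlation of 0.935 with the other day 3 arrays over the 18419 tested genes. The part of array quality in these values was not tested, and the counts without the array are given with the results. Genes outside the 36 were not checked by this ratio.

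Array 73 of day 7 was low for P4hb (14.09, others 14.38 to 14.4), Serpinh1 (7.27, others 7.66 to 7.73) and Sec24d (8.33, others 8.81 to 8.91). Array 71 of day 7 was high for Hspa5 (13.01, others 12.72 to 12.76). On day 1, array 12 was low for Ddit3 (6.96, others 7.51 to 7.61), array 13 low for Dnajb9 (11.62, others 12.07 to 12.14) and array 14 high for Sec23a (11.51, others 11.03 to 11.11). In sham, array 4 was low for Serpinh1 (5.96, others 6.4 to 6.44) and array 2 high for Sec24d (8.16, others 7.91 to 7.95).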

How the results depend on the processing

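Of 108 differences of the 36 genes from sham, 71 were called, and 53 of these kept their direction and call under all 8 alternatives and in each of the 16 fits that left out an array. Directions that reversed were those of Hsp90b1 under quantile normalisation (-0.06, -0.07 and -0.42 on days 1, 3 and 7), of Canx on day 3 under quantile normalisation (-0.63) and of Atf6 on day 1 with control separation as a covariate (0.36); the cause was not tested. A further 32 changes of sign concerned values called in neither fit, of at most 0.15 in size. Quantile normalisation moved the median difference of all tested genes on day 1 from 0.06 to -0.07. The share of higher among called genes was 52.9% on day 1, 53.8% on day 3 and 60.0% on day 7, against 36.7%, 37.7% and 44.6% under quantile normalisation and 38.5%, 36.9% and 37.9% under median centring. The counts of ER genes that moved by over 1.5 times follow, each with the count among all 18419 tested genes under the same setting in brackets. The shares in the reported fit are given with the results. Under quantile normalisation, 3, 5 and 5 genes were lower than sham on days 1, 3 and 7 (5952, 5376 and 2725). Under median centring 2 were lower on day 1 (5536). With array weights, 2 were lower on day 1 (5126) and 5 on day 7 (4006). On day 3 against day 1, array weights gave 15 higher (3930) and 4 lower (3516). They also gave 25 lower on day 7 than on day 3 (3425) and 5 higher on day 7 than on day 1 (4138). With control separation as a covariate, 5 were lower on day 7 (3645). The covariate also gave 1 higher (1529) and 20 lower (2968) on day 7 than on day 3, and 16 lower on day 7 than on day 1 (2747). Without arrays 13 and 31, 2 were lower on day 1 (4541) and 15 higher on day 3 than on day 1 (3037). In that fit 21 were lower on day 7 than on day 3 (2801) and 5 higher on day 7 than on day 1 (3391). Fits of 2 groups only gave 0 higher (208) and 0 lower (46) between days 1 and 3, and 5 higher on day 7 than on day 1 (3055). No filter gave 3 higher on day 3 than on day 1 (873, there of 30138 genes). Leaving out each array in turn gave 17 to 27 higher and 1 to 2 lower on day 1, 23 to 29 and 3 to 4 on day 3, 12 to 15 and 1 to 4 on day 7, 1 to 15 and 1 to 3 on day 3 against day 1, 0 and 11 to 20 on day 7 against day 3, and 2 to 5 and 7 to 14 on day 7 against day 1. The counts of all tested genes moved in these fits too, from 3343 to 6552 higher on day 1 and from 557 to 3457 higher on day 3 than on day 1. No paired analysis was possible because the groups share no array numbers.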
